A study of Mus musculus with 26 samples.

Results

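The fibrous sheath genes described here encode proteins of the sheath that surrounds the principal piece of the mouse sperm tail. They were chosen by name. The list holds 9 genes, and counts of 8 of them were used (Akap3, Akap4, Akap14, Ropn1, Ropn1l, Fsip1, Cabyr and Spa17), out of 24682 gene symbols with counts in all. Fsip2 was not analysed here. Per the labels, the testis donors were C57BL/6 mice taken on postnatal day 21, of 3 mutant kinds, Nkapl knockout (Nkapl-KO), Sox30 knockout (Sox30-KO), and mice homozygous for the TGdel allele of Nkapl (TGdel), each with wild-type (WT) mice of its own set. A further set held cells labelled as round spermatids (RS) or pachytene spermatocytes (PS), from Nkapl-KO and WT testes labelled 21d, with no strain or isolation method in the labels. The series' title names a frameshift mutation of NKAPL. Nothing in the labels tells what segment of Nkapl or Sox30 the knockouts lack, whether testes were pooled, or whether the libraries of a group share a litter.

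The fibrous sheath consists of longitudinal columns joined by ribs, and it is assembled around the axoneme while spermatids elongate. AKAP4 and AKAP3 are its main structural proteins and are A-kinase anchoring proteins, which hold cAMP-dependent protein kinase (PKA) through the kinase's RII subunits. Ropporin, its relative ROPN1L, CABYR and SPA17 carry a domain like the docking fold of RII and dock on the same kind of anchoring helix, and the sheath also carries glycolytic enzymes that supply ATP to the tail. NKAPL is a testis protein related to the nuclear protein NKAP, and SOX30 is a transcription factor of male germ cells.

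The data were read counts per gene in 26 files. The column heading of 15 of 18 testis files named another sample than the file's own record, and 3 pairs of files held the same column, so that there were 23 distinct libraries. Libraries were grouped by the heading, which gave 2 Nkapl-KO and 3 WT libraries, 2 Sox30-KO and 3 WT libraries, 3 TGdel and 2 WT libraries, and 2 libraries for each labelled cell type and genotype. For 4 libraries the heading and the record disagreed on the genotype (WT 3 of the Nkapl set, WT 3 of the Sox30 set, and TGdel 3 and WT 2 of the TGdel set), and the test results of the sheath genes and of the gene lists are given also without them. The series' design text says that each group had biological triplicates, which does not match these counts of distinct libraries.

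Libraries held 20120729 to 25514132 counts in the Nkapl set, 34167576 to 40010106 in the Sox30 set, 16469667 to 17822056 in the TGdel set and 18155299 to 19569272 in the PS and RS set. Levels are CPM, a gene's counts relative to the scaled library total, and levels were tested only within a set. Effects were also tested between testis sets in a joint fit. Correlations over group means used all libraries of all sets, scaled together, as a description. Nkapl itself was at 60.8 and 57.8 CPM in Nkapl-KO testes, against 74.9, 79.5 and 79.9 CPM in WT testes (log2 difference -0.40 ± 0.05, adjusted p = 2.96e-06, edgeR quasi-likelihood test). Without WT 3 the difference was -0.38 (adjusted p = 0.000143), and grouped by the records it was -0.22 and did not pass (adjusted p = 0.629). In RS it was at 24.6 and 23.6 CPM in Nkapl-KO libraries, against 88.4 and 90.3 CPM in WT libraries (log2 difference -1.89 ± 0.07, adjusted p = 4.4e-20). In PS it was at 127 and 125 CPM in the libraries labelled Nkapl KO, against 90.1 and 86.0 CPM in WT libraries. The PS libraries labelled KO thus had a higher Nkapl level than WT libraries (log2 difference 0.51 ± 0.05, adjusted p = 3.26e-09). They are called labelled KO below. The labels do not give the segment that is lacking, so this level does not tell whether the label holds. Sox30 was at 44.7 and 61.5 CPM in Sox30-KO testes, against 77.6, 86.2 and 72.4 CPM in WT testes, a difference that did not pass the test (adjusted p = 0.17, and 0.143 without WT 3). In TGdel testes Nkapl was at 107, 118 and 126 CPM, against 101 and 103 CPM in WT testes (adjusted p = 0.328, and 0.769 without TGdel 3 and WT 2).

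Markers of the labelled cell types were checked in the PS and RS set. The summed level of 10 round spermatid markers was 2330 to 3030 CPM in RS libraries and 874 to 1220 CPM in PS libraries. That of 10 pachytene spermatocyte markers was 3900 to 4130 CPM in RS libraries and 4580 to 5440 CPM in PS libraries. None of the markers of either kind was at 0 in any of these 8 libraries, so markers of both stages were counted in both kinds of library. Elongating spermatid markers, at 1110 to 3010 CPM summed over 10 genes, were also present in every PS library. In the Nkapl testis set, scaled apart, they summed to 83.4 to 131 CPM in WT and 1.10 to 1.51 CPM in Nkapl-KO testes. PS libraries labelled 21d thus held far higher levels of these markers than day 21 testes, and the cause was not tested.

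Akap3 and Akap4, the paired scaffold genes, are shown with the 250 bases before their start sites because these share a longer run of letters than any other pair. RefSeq (GRCm38.p6) gave such a promoter for 6 of the 8 genes. Capitals mark the shared run of 20 bases, and both sequences are written 5′ to 3′ on the gene's own strand (plus for both).
Akap3, chr6:126852848-126853097: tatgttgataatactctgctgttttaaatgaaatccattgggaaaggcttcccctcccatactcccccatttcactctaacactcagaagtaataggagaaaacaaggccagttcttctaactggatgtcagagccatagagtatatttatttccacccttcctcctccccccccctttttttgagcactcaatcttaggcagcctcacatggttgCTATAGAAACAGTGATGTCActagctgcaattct
Akap4, chrX:7067265-7067514: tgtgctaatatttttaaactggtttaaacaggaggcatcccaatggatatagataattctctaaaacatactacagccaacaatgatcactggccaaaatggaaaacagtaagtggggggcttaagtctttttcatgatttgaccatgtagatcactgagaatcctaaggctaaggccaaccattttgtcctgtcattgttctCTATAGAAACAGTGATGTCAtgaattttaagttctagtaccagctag
The run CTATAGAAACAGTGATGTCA lies 34 to 15 bases before the start of Akap3 and 47 to 28 bases before the start of Akap4, and 2 of 27025 RefSeq promoters of this length held it, these same 2. The longest run shared by any of the other 14 pairs was 12 bases. The run was picked after the letters had been compared, and it is a description of sequence, not of a binding site.

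Motifs were searched on both strands of the same 250 bases. AACAAT, the core letters of SOX binding, was found at 172 to 167 and, as ATTGTT, at 55 to 50 bases before the start of Akap4, and as ATTGTT at 51 to 46 bases before the start of Akap14. It was in 9.65% of all 27025 promoters. GTTGCC, letters of an RFX binding site, was found at 20 to 15 bases before the start of Ropn1l and in 10.5% of all promoters. TGACG, the core letters of the cAMP response element, was in none of the 6 windows and in 17.9% of all promoters. None of the 3 motifs was in the windows of Akap3, Ropn1 or Spa17. The window of Ropn1 ends at a RefSeq start that lies 1290 bases downstream of the gene's start in GENCODE, so it is not the sequence before the GENCODE start, whereas the starts in both sources lie within 48 bases of each other for the other 5 genes. A match here is a description of letters only.

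By GENCODE, the 8 genes lie on 7 chromosomes of GRCm38 and are annotated as protein-coding. Akap4 (chrX:7067519-7078609, plus strand) and Akap14 (chrX:37150698-37168842, minus strand) are X-linked. Akap3 is at chr6:126853098-126874308 (plus strand), Ropn1 at chr16:34649921-34678618 (plus strand), Ropn1l at chr15:31441211-31453737 (minus strand), Fsip1 at chr2:118130424-118256966 (minus strand), Cabyr at chr18:12740322-12755260 (plus strand) and Spa17 at chr9:37603290-37613722 (minus strand). Exons of Spa17 share 391 bases (36.85% of its exon length) with Siae on the other strand, those of Akap14 share 49 bases with Nkap on the other strand, and those of Fsip1 share 133 bases with Gm29232 on the same strand. Whether strand was used in counting is not given in the sources used here, and reads of these pairs may then not be told apart.

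Per kilobase of exon, Ropn1l was the highest of the 8 genes and Spa17 the next in all 10 groups. In Nkapl-KO RS the levels were 1030 for Ropn1l, 529 for Spa17, 372 for Akap3, 275 for Akap4, 202 for Cabyr, 142 for Ropn1, 58.7 for Fsip1 and 32.0 for Akap14 (CPM per kilobase, means, n = 2). In WT RS they were 1370 for Ropn1l, 615 for Spa17, 517 for Akap3, 438 for Akap4, 261 for Cabyr, 227 for Ropn1, 79.3 for Fsip1 and 19.8 for Akap14. The order of the 8 genes was thus the same in both genotypes, and it was the same again in PS libraries. Akap14 was the lowest in WT testes of all 3 sets, while Ropn1 was the lowest in Nkapl-KO testes (0.0141 CPM per kilobase) and Sox30-KO testes (0.0307 CPM per kilobase). In WT testes of the Nkapl set Fsip1, Cabyr and Akap4 stood next to each other at 12.7 ± 0.62, 12.6 ± 2.51 and 12.1 ± 2.53 CPM per kilobase (SD, n = 3), within their spread. In WT testes of the Sox30 set the spread was wider, and Akap4 (21.6 ± 14.6), Cabyr (15.8 ± 8.97), Fsip1 (14.9 ± 2.78) and Ropn1 (13.6 ± 8.23) could not be set in an order.

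**Figure D1:**
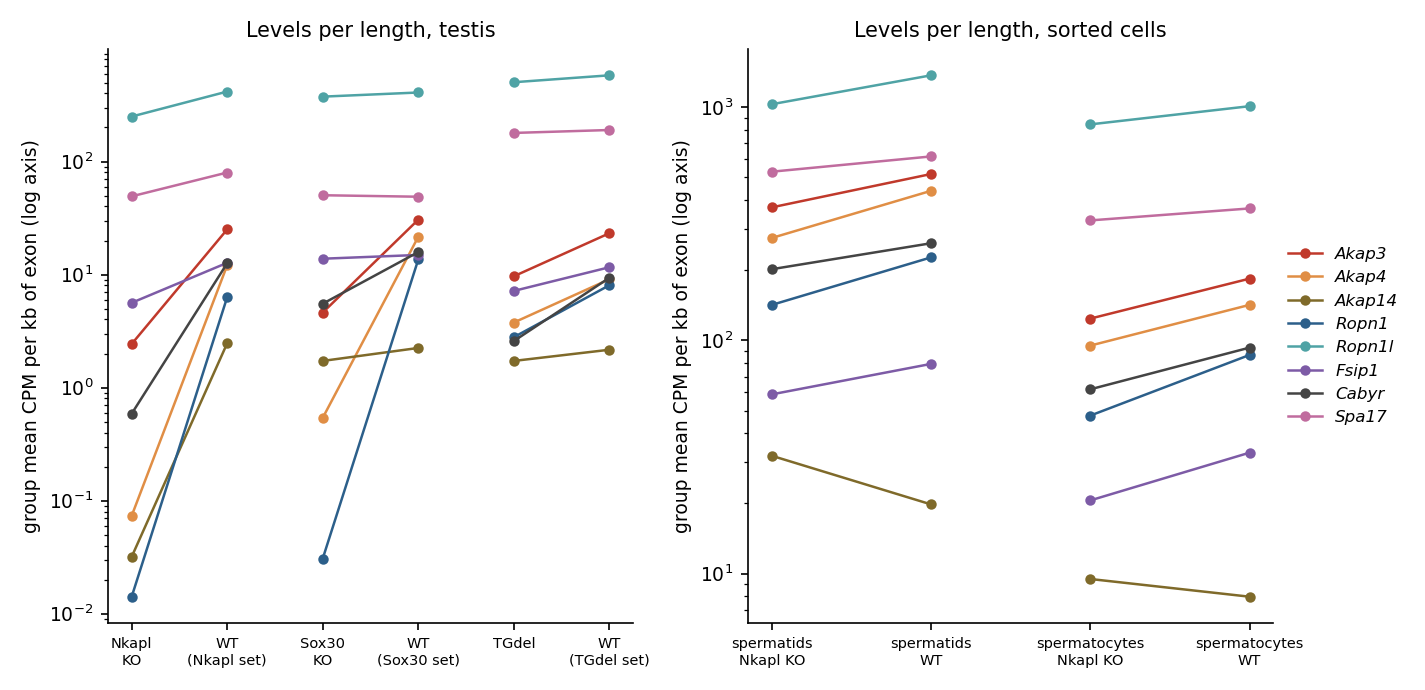
Levels per length of the 8 fibrous sheath genes in each group, in CPM per kilobase of exon on a log axis. Ropn1l and Spa17 are the highest in every group, and Akap14 is the lowest in all groups except the Nkapl-KO and Sox30-KO testes, where Ropn1 is the lowest.

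In Nkapl-KO testes all 8 fibrous sheath genes fell relative to WT testes. The scaffolds Akap3 and Akap4, the ropporin gene Ropn1, Akap14 and Cabyr fell by over 3 log2 units, while Ropn1l, Spa17 and Fsip1 fell by 0.70 to 1.18 log2 units. Of 16937 genes tested, 26.1% were called lower, and 17.8% higher, at an adjusted p under 0.05. The median log2 difference was -3.90 over the 8 genes and 0.01 over all genes tested. In Akap4, Akap14 and Ropn1 both KO libraries had fewer than 10 counts, so these genes were tested only because of their WT counts, and the count of 8 is a description. In whole testis, fewer cells of a type and less RNA per cell cannot be told apart.

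Akap4, which encodes the most abundant sheath protein, was at 0.292 and 0.152 CPM in Nkapl-KO testes (6 and 4 counts), against 44.8, 29.6 and 35.9 CPM in WT testes (987, 670 and 802 counts). The groups were far apart, with a log2 difference of -7.39 ± 0.28 (SE, adjusted p = 1.51e-12). Akap3, the scaffold that forms the sheath together with AKAP4, was at 8.66 and 6.69 CPM in Nkapl-KO testes, against 93.9, 66.6 and 76.8 CPM in WT testes (log2 difference -3.38 ± 0.14, adjusted p = 2.69e-12). Akap3 still had 354 counts over both KO libraries, and Akap4 had 10. Akap14, an A-kinase anchoring gene whose human counterpart was described in airway cilia, had 0 and 3 counts in Nkapl-KO testes, against 113, 81 and 102 counts in WT testes. Its counts give a ratio of WT to KO levels of 69 (95% counting interval 23.4 to 337; adjusted p = 5.8e-09).

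Among the proteins with an RII-like fold, Ropn1 and Ropn1l were far apart in the size of their change. Ropn1 had 0 and 1 counts in Nkapl-KO testes, against 230, 144 and 194 counts in WT testes, a ratio of WT to KO levels of 397 (95% counting interval 71.0 to 15700; adjusted p = 2.02e-10). Ropn1l was at 243 and 236 CPM in Nkapl-KO testes, against 387, 403 and 404 CPM in WT testes. The groups did not overlap for Ropn1l, and the fold was 1.66 (log2 difference -0.73 ± 0.04, adjusted p = 2.7e-11). Cabyr, whose protein binds calcium and is phosphorylated on tyrosine during capacitation, was at 1.46 and 1.48 CPM in Nkapl-KO testes, against 38.4, 25.9 and 30.4 CPM in WT testes (log2 difference -4.42 ± 0.19, adjusted p = 5.36e-12). Spa17, a sperm autoantigen that binds A-kinase anchoring proteins, was at 51.0 and 53.3 CPM in Nkapl-KO testes, against 87.6, 80.9 and 86.0 CPM in WT testes (log2 difference -0.70 ± 0.05, adjusted p = 2.97e-09). None of these groups overlapped, while over all genes tested 32.9% were lower in Nkapl-KO testes with no overlap. Fsip1, a fibrous sheath interacting protein that binds AKAP4, was at 15.8 and 16.9 CPM in Nkapl-KO testes, against 39.1, 35.7 and 36.3 CPM in WT testes (log2 difference -1.18 ± 0.07, adjusted p = 3.72e-10). Siae, the antisense neighbour of Spa17, moved the other way (log2 difference 0.23 ± 0.07, adjusted p = 0.00758).

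**Figure D2:**
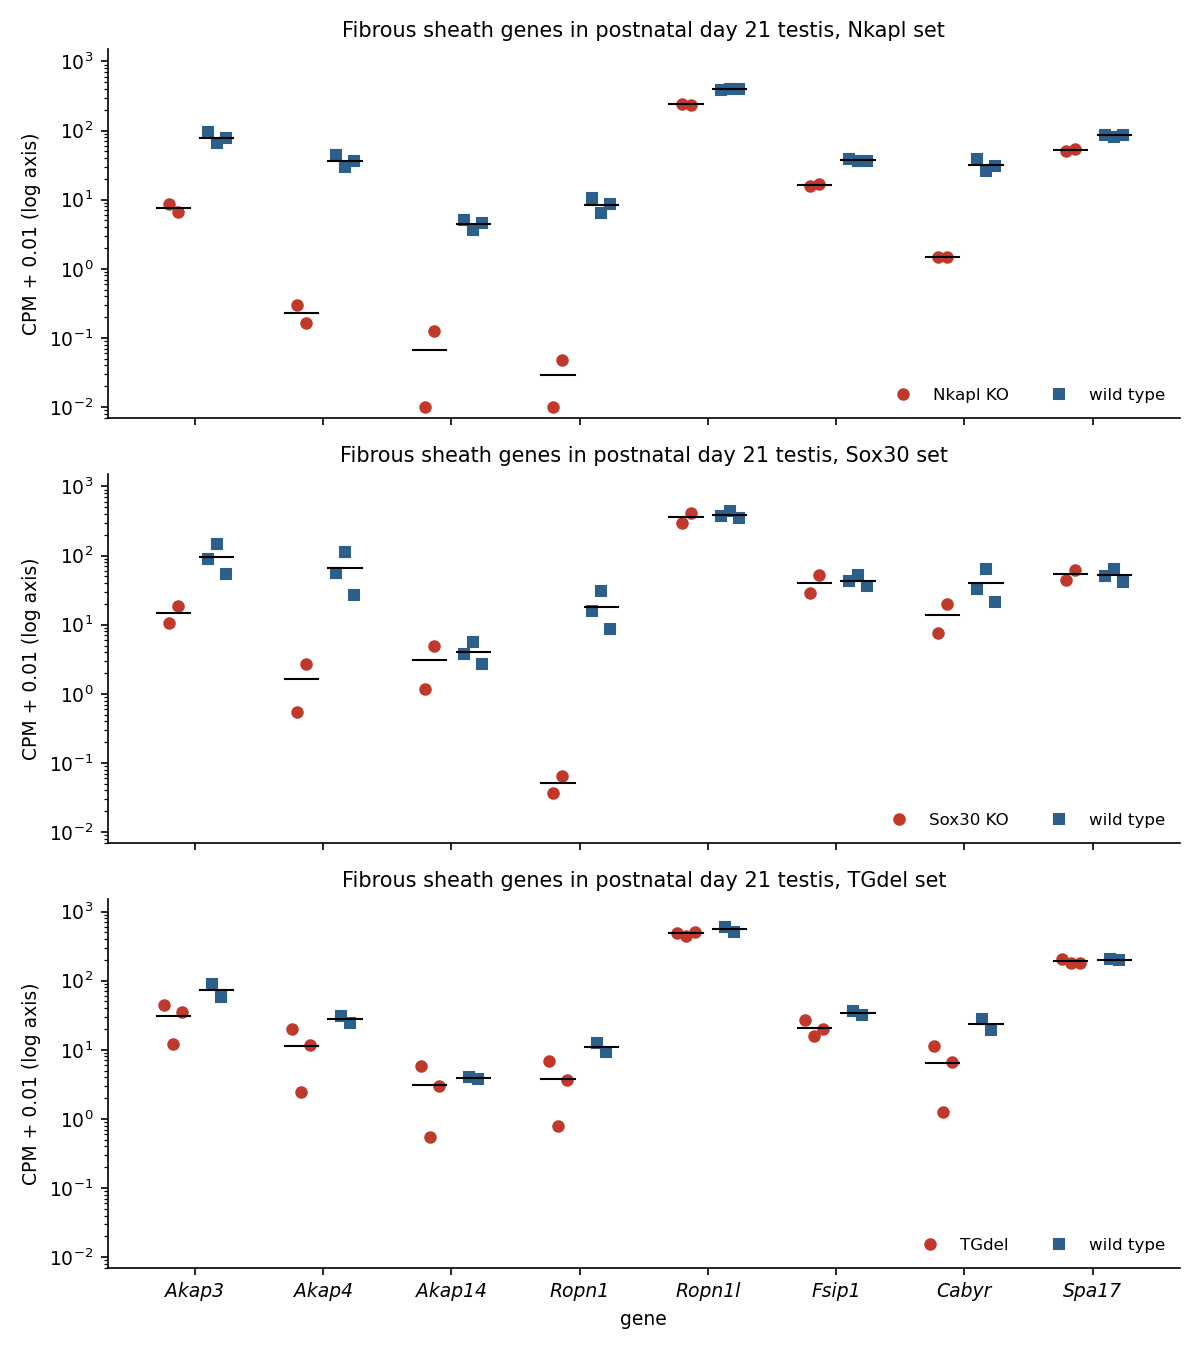
Level of each fibrous sheath gene in every testis library, in CPM + 0.01 on a log axis, with mutant libraries left of the WT libraries of the same set and a line at each mean. In the Nkapl set the KO points lie below all WT points for all 8 genes, in the Sox30 set for Akap3, Akap4, Ropn1 and Cabyr, and TGdel libraries are spread between low and near-WT levels.

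Spermatid markers moved with these genes in Nkapl-KO testes. The summed level of 10 round spermatid markers was 76.5 to 78.1 CPM in Nkapl-KO testes and 221 to 268 CPM in WT testes. All 10 fell, where 26.1% of all genes were called lower. Of the 10, 6 had fewer than 10 counts in each KO library and were tested only because of their WT counts. The elongating spermatid markers summed to 1.10 to 1.51 CPM in Nkapl-KO testes, with 5 to 6 of 10 at 0, and to 83.4 to 131 CPM in WT testes, with none at 0. Of these 10 markers 8 were tested and 8 fell, but 6 of the 8 had fewer than 10 counts in each KO library and passed the filter only through WT, so the count is a description. Without WT 3, 10 of 10 round and 6 of 6 tested elongating spermatid markers fell. Pachytene spermatocyte markers summed to 3580 CPM in each Nkapl-KO testis and to 3890 to 3970 CPM in WT testes. Spermatogonial markers were at 303 to 314 CPM in Nkapl-KO testes and 243 to 250 CPM in WT testes, and Sertoli cell markers at 566 CPM or more in Nkapl-KO testes and 471 CPM or less in WT testes. The part of these markers in the fall of the fibrous sheath genes was not tested.

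**Figure D3:**
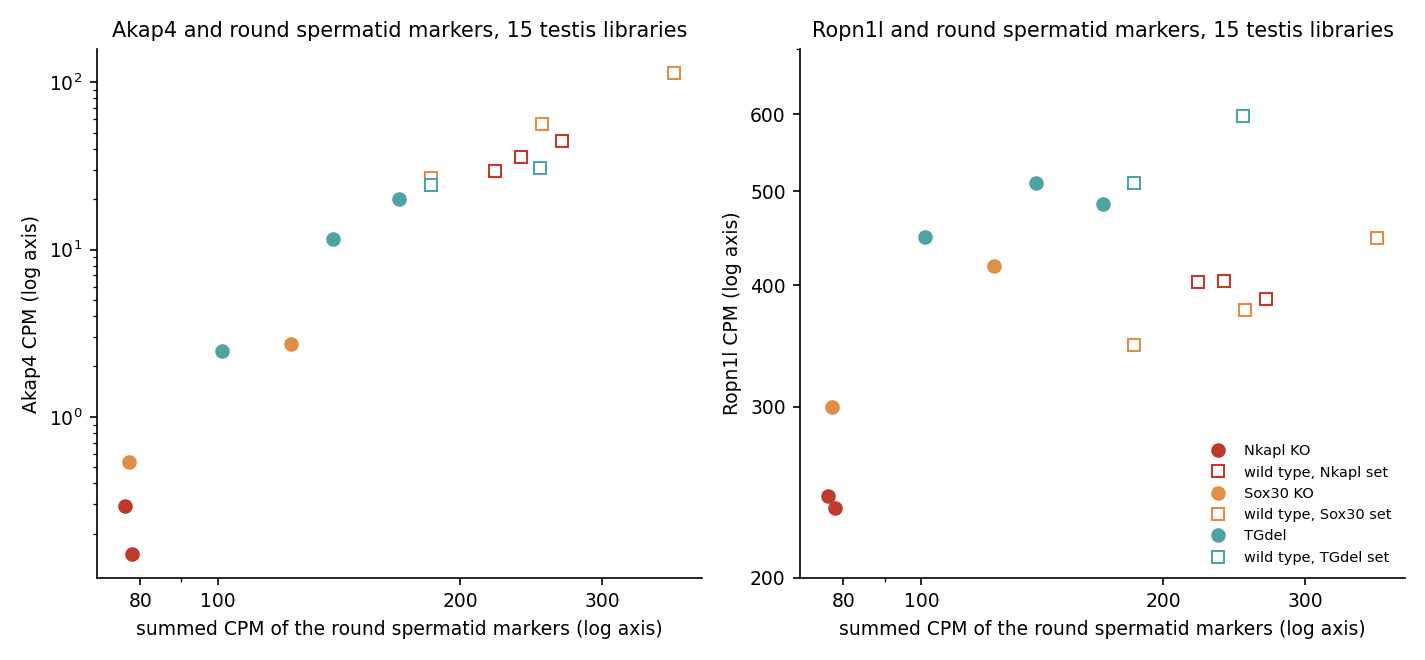
Levels of Akap4 and Ropn1l in each of the 15 testis libraries against the summed CPM of the round spermatid markers of the same library, both on log axes. Libraries with the lowest marker sums, the Nkapl-KO testes at 76.5 to 78.1 CPM and the Sox30-KO testis at 77.5 CPM, also hold the lowest levels of Akap4. CPM were scaled within each set, and levels of different sets were not tested against each other.

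The heading of WT 3 of the Nkapl set and its record disagree. With that library left out, all 8 genes still fell, with log2 differences of -3.40 for Akap3, -7.41 for Akap4 and -8.29 for Ropn1 (adjusted p = 2.44e-09, 1.2e-09 and 4.63e-08). Grouped by the records, 0 of the 8 passed edgeR's test, with 0 also at an unadjusted p under 0.05. In that grouping edgeR called 0 genes lower over all genes tested. The log2 differences of the 8 genes ran between -0.41 for Spa17 and -1.62 for Akap4, with adjusted p of 0.629 to 0.72.

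In Sox30-KO testes 3 of the 8 genes fell, Akap3, Akap4 and Ropn1, and none rose. Of 17816 genes tested, 1.92% were called lower and 0.505% higher. The median log2 difference of the 8 genes was -0.95, against 0.00 over all genes. The 2 KO libraries differed from each other, KO 2 being the higher for every one of the 8 genes. Ropn1 passed the filter on low counts only through its WT libraries.

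Akap4 was at 0.534 and 2.73 CPM in Sox30-KO testes, against 56.4, 113 and 26.6 CPM in WT testes (log2 difference -5.33 ± 0.85, adjusted p = 0.0246). Akap3 was at 10.5 and 18.6 CPM in Sox30-KO testes, against 89.4, 145 and 54.7 CPM in WT testes (log2 difference -2.73 ± 0.45, adjusted p = 0.0272). Both KO libraries were below every WT library for either scaffold, as for 11.1% of all genes tested. Ropn1 had 1 and 2 counts in Sox30-KO testes, against 635, 1027 and 296 counts in WT testes, a ratio of WT to KO levels of 441 (95% counting interval 151 to 2140; adjusted p = 0.0066). These calls rest on having both KO libraries, since with edgeR 0 of the 8 genes passed without KO 1 (3 at an unadjusted p under 0.05) and 0 without KO 2 (6 at an unadjusted p under 0.05). Without WT 1 only Ropn1 passed (adjusted p = 0.0428). All 3 passed again without WT 3, the library whose heading and record disagree. Grouped by the records, 0 of the 8 passed with edgeR and 3 had an unadjusted p under 0.05. The log2 differences were then -2.07 for Akap3, -3.10 for Akap4 and -3.00 for Ropn1. With the grouping by heading and all libraries, 1087 of all 17816 genes were lower and 465 higher at an unadjusted p under 0.05. The counts of all genes at that threshold in the other fits are not given here.

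The remaining 5 genes did not pass the test in Sox30-KO testes. Cabyr was at 7.69 and 19.96 CPM in Sox30-KO testes, against 32.9, 64.7 and 21.3 CPM in WT testes, without overlap (log2 difference -1.52 ± 0.55, adjusted p = 0.391). Akap14 was at 1.18 and 4.99 CPM in Sox30-KO testes, against 3.72, 5.60 and 2.71 CPM in WT testes, so the groups overlapped (log2 difference -0.38 ± 0.57, adjusted p = 1). Ropn1l was at 300 and 419 CPM in Sox30-KO testes, against 377, 448 and 347 CPM in WT testes. Fsip1, at 28.4 and 52.1 CPM in Sox30-KO testes against 42.3, 51.9 and 35.8 CPM in WT testes, and Spa17, at 44.0 and 62.7 CPM in Sox30-KO testes against 50.5, 63.5 and 41.3 CPM in WT testes, also overlapped. Their log2 differences lay between -0.12 and 0.04, each with an adjusted p of 1.

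In the same Sox30-KO testes the round spermatid markers summed to 77.5 and 123 CPM, against 184 to 369 CPM in WT testes, and 7 of 10 fell (8 without WT 3). Of all genes tested, 1.92% were called lower and 0.505% higher there. That is 342 lower and 90 higher, and the alternatives gave 0 to 1370 lower and 0 to 358 higher. Elongating spermatid markers summed to 2.72 and 6.69 CPM, with 3 of 10 at 0 in each KO library, against 74.7 to 282 CPM in WT testes, and 5 of 10 fell (10 without WT 3). In 3 of the round and 7 of the elongating spermatid markers both KO libraries had fewer than 10 counts, so these were tested only because of their WT counts. Epididymis markers were higher in Sox30-KO testes, at 55.6 and 89.8 CPM against 2.85 to 9.71 CPM in WT testes, and 7 of 9 tested rose (7 without WT 3). In 7 of these 9 every WT library had fewer than 10 counts, so that they were tested only because of their KO counts. Pachytene spermatocyte markers were at 3490 to 3760 CPM in Sox30-KO testes and 3630 to 3910 CPM in WT testes, with 0 of 10 called by edgeR and 0 at an unadjusted p under 0.05. The part of these markers in the changes of the sheath genes was not tested.

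Akap14 was the 1 member called by edgeR in a test of the difference between the Nkapl and Sox30 knockout effects. It had 0 and 3 counts in Nkapl-KO testes, so it entered that test through the counts of other groups. In a joint fit of all testis libraries, the Nkapl-KO effect on Akap14 was lower than the Sox30-KO effect by a log2 difference of -5.60 ± 1.40 (adjusted p = 0.0392, edgeR), with 3.55% of 17647 genes called lower in that test. Of the other 7 genes none passed, while Ropn1l, Fsip1, Cabyr and Spa17 had an adjusted p of 0.105 to 0.115. Ropn1 could not be resolved, with a log2 difference of 0.32 that ran between -2.13 and 1.46 over the alternatives. At an unadjusted p under 0.05 the test gave 5 of 8 genes lower, as it did 2010 of all 17647 genes. DESeq2 called 4, where it called 4.46% of all genes lower. The Akap14 call was lost in 13 of 21 alternatives, among them that without the libraries whose heading and record disagree (log2 difference -5.39, adjusted p = 0.162). Over the alternatives its log2 difference ranged between -9.44 and -0.82, with an adjusted p of 0.00354 to 1.

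In TGdel testes none of the 8 genes passed edgeR's test at an adjusted p under 0.05. At an unadjusted p under 0.05 there were 4 lower and 0 higher, against 1454 lower and 1022 higher of all 16011 genes tested. DESeq2 called 1 lower (Fsip1, adjusted p = 0.0425), where it called 2.28% of all genes lower. Of 16011 genes tested, 1.05% were called lower and 0.200% higher. The median log2 difference was -0.98 over the 8 genes and 0.00 over all genes. TGdel 1 was the lowest library of the set for all of the 8 genes except Spa17. Its level of Rn45s, the ribosomal RNA precursor, was 4930 CPM, against 671 and 611 CPM in the other TGdel testes and 691 and 699 CPM in WT testes. Rn45s also differed in the Nkapl set, at 54200 and 51300 CPM in Nkapl-KO and 40100 to 40600 CPM in WT testes (log2 difference 0.38 ± 0.03, adjusted p = 1.44e-08, edgeR). In the Sox30 set it was at 34000 and 32900 CPM in Sox30-KO and 28500 to 34800 CPM in WT testes. The part of Rn45s in other differences was not tested.

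Akap4 was at 2.47, 11.6 and 20.1 CPM in TGdel testes, against 30.8 and 24.2 CPM in WT testes (log2 difference -1.27 ± 0.56, adjusted p = 0.331). Akap3 was at 12.2, 34.8 and 44.3 CPM in TGdel testes, against 88.3 and 58.2 CPM in WT testes (log2 difference -1.26 ± 0.40, adjusted p = 0.18). For both scaffolds every TGdel library was below both WT libraries, with TGdel 1 far below the rest. Ropn1 was at 0.783, 3.62 and 6.84 CPM in TGdel testes, against 12.4 and 9.20 CPM in WT testes (log2 difference -1.52 ± 0.58, adjusted p = 0.253). Cabyr was at 1.26, 6.67 and 11.4 CPM in TGdel testes, against 27.5 and 19.4 CPM in WT testes (log2 difference -1.85 ± 0.57, adjusted p = 0.166). Fsip1 was at 15.8, 20.2 and 26.5 CPM in TGdel testes, against 35.9 and 31.6 CPM in WT testes (log2 difference -0.69 ± 0.19, adjusted p = 0.119). These 3 genes did not overlap between the groups either. Over all genes tested, 17.3% were lower in TGdel testes with no overlap.

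Akap14, at 0.542, 2.94 and 5.75 CPM in TGdel testes against 3.997 and 3.75 CPM in WT testes, overlapped between the groups (log2 difference -0.33 ± 0.65, adjusted p = 0.868). Spa17, at 182, 179 and 208 CPM in TGdel testes against 205 and 198 CPM in WT testes, also overlapped. Ropn1l was at 449, 509.7 and 485 CPM in TGdel testes, against 598 and 510.4 CPM in WT testes, with no overlap and an adjusted p of 0.362. TGdel 3 and WT 2, the libraries whose heading and record disagree, are the highest TGdel and the lowest WT library for Akap3, Akap4, Ropn1, Fsip1 and Cabyr. Without them Akap3 (log2 difference -1.90, adjusted p = 0.044), Fsip1 (-0.99, adjusted p = 0.0334) and Cabyr (-2.78, adjusted p = 0.044) passed the test. Without TGdel 1 instead, Akap3 (-0.89, adjusted p = 0.0285) and Cabyr (-1.37, adjusted p = 0.0161) passed. The fit without TGdel 3 and WT 2 kept WT 1 as its only WT library. Shares of all genes called in these fits are not given here. Over the alternatives 0 to 405 of all genes were called lower, against 168 as reported. When libraries were grouped by their records, 0 of the 8 passed with edgeR, and 0 had an unadjusted p under 0.05.

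Round spermatid markers summed to 101, 139 and 168 CPM in TGdel testes, against 251 and 184 CPM in WT testes, and elongating spermatid markers to 7.11, 34.9 and 60.7 CPM, with 1 to 3 of 10 at 0, against 119 and 73.8 CPM in WT testes. Epididymis markers were at 31.4, 3.22 and 3.62 CPM in TGdel testes and at 57.0 and 5.18 CPM in WT testes. In these 3 lists edgeR called 0 genes, and 8 round spermatid, 6 elongating spermatid and 0 epididymis markers were lower at an unadjusted p under 0.05. Of all 16011 genes tested, 1454 were lower at that threshold. EdgeR called 168 of all genes lower as reported, and the alternatives gave 0 to 405. Without TGdel 3 and WT 2, 5 of 10 round and 1 of 9 tested elongating spermatid markers fell. The part of these markers in the levels of the sheath genes was not tested. In the test of the difference between the Nkapl-KO and the TGdel effect, where 0.266% of 17647 genes were called lower and 0.0283% higher, 0 of the 8 genes passed with edgeR. There were 7 lower at an unadjusted p under 0.05, as were 2318 of all 17647 genes. DESeq2 called 3 lower (3.88% of all genes). The largest of these log2 differences were -6.82 ± 1.66 for Ropn1 (adjusted p = 0.0781), -6.12 ± 1.45 for Akap4 (adjusted p = 0.0777) and -5.68 ± 1.45 for Akap14 (adjusted p = 0.0849). Without the disagreeing libraries 0 of the 8 passed, with 3 at an unadjusted p under 0.05, and these differences were -5.89 for Ropn1, -5.32 for Akap4 and -4.84 for Akap14 (adjusted p = 0.606, 0.606 and 0.625).

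In RS, 7 of the 8 genes fell in Nkapl-KO libraries and Akap14 rose. Of 15805 genes tested, 31.0% were called lower and 29.0% higher, and the median log2 difference was -0.43 over the 8 genes and 0.03 over all. In PS libraries labelled KO the same 7 genes were lower and Akap14 was higher than in WT libraries, where 25.7% of genes were called lower and 33.6% higher (median log2 difference -0.58 over the 8 genes, 0.07 over all). For each of the 8 genes the groups did not overlap in either cell type. Over all genes tested, 39.3% were lower and 40.5% higher with no overlap in RS, and 34.2% lower and 43.7% higher in PS. The falls were 1.16-fold to 1.60-fold in RS and 1.13-fold to 1.82-fold in PS.

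Akap4 was at 834 and 831 CPM in Nkapl-KO RS, against 1287 and 1363 CPM in WT RS (log2 difference -0.67 ± 0.05, adjusted p = 1.86e-13). In PS it was at 289.7 and 285 CPM in libraries labelled KO, against 448 and 413 CPM in WT libraries (log2 difference -0.58 ± 0.05, adjusted p = 1.11e-11). Akap3 was at 1158 and 1188 CPM in Nkapl-KO RS, against 1611 and 1650 CPM in WT RS (log2 difference -0.48 ± 0.04, adjusted p = 3.66e-11). The replicates of either scaffold differed by far less than the genotypes did. In PS, Akap3 was at 389.9 and 390.2 CPM in libraries labelled KO, against 583 and 577 CPM in WT libraries (log2 difference -0.57 ± 0.04, adjusted p = 1.55e-12).

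Akap14 moved the other way in these cells. It was at 57.5 and 57.3 CPM in Nkapl-KO RS, against 34.2 and 36.6 CPM in WT RS, a log2 difference of 0.70 ± 0.07 (adjusted p = 9.86e-10) that was kept in all 13 alternatives, at 0.62 to 0.73. In PS it was at 16.4 and 17.6 CPM in libraries labelled KO, against 13.6 and 14.9 CPM in WT libraries (log2 difference 0.25 ± 0.09, adjusted p = 0.0178). The PS difference was lost in 9 of 13 alternatives, with log2 differences of 0.18 to 0.32 and an adjusted p of 0.0106 to 0.151. The RS difference exceeded the PS difference by 0.44 ± 0.12 log2 units (adjusted p = 0.00511). Nkap, which shares exon bases with Akap14 on the other strand, was at or under 0.626 CPM in all of these libraries and differed in neither cell type by the test (adjusted p = 0.622 in RS and 0.955 in PS).

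**Figure D4:**
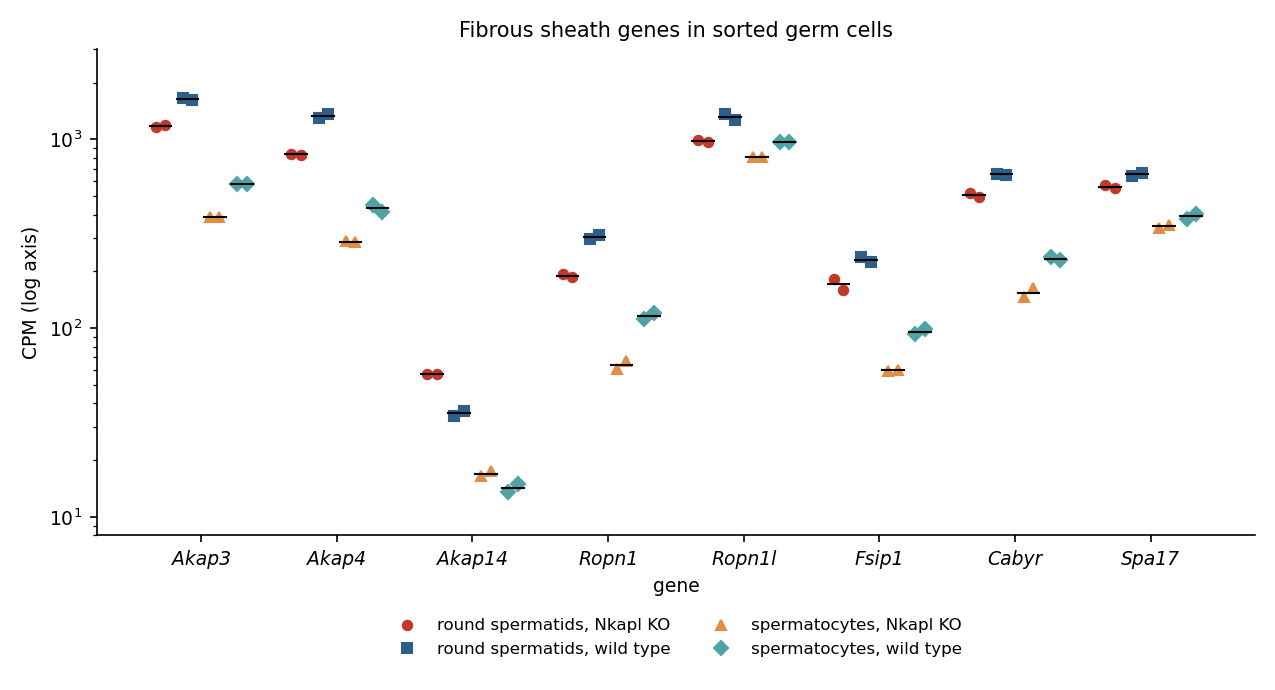
Level of each fibrous sheath gene in every RS and PS library, in CPM, with Nkapl-KO (labelled KO in PS) libraries left of WT libraries and a line at each mean. Akap14 is higher in Nkapl-KO RS and in PS libraries labelled KO than in WT, at 57.3 to 57.5 CPM against 34.2 to 36.6 CPM in RS, and the other 7 genes are lower.

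The RII-fold genes fell in both cell types. Ropn1 was at 193 and 187 CPM in Nkapl-KO RS, against 297 and 313 CPM in WT RS (log2 difference -0.68 ± 0.05, adjusted p = 5.38e-12). In PS it was at 60.7 and 67.2 CPM in libraries labelled KO, against 112 and 120 CPM in WT libraries, the largest fall of the 8 genes there (log2 difference -0.86 ± 0.06, adjusted p = 4.22e-13). Ropn1l was at 994 and 968 CPM in Nkapl-KO RS, against 1258 and 1373 CPM in WT RS (log2 difference -0.42 ± 0.04, adjusted p = 1.81e-09). Ropn1 thus had counts in Nkapl-KO RS and in PS libraries labelled KO, unlike the 0 and 1 counts in Nkapl-KO testes. WT libraries differed in level too, with Ropn1 at 10.4, 6.36 and 8.67 CPM in WT testes of the Nkapl set, scaled apart. The difference between testis and labelled cells was not tested. In PS, Ropn1l was at 809.9 and 806 CPM in libraries labelled KO, against 968 CPM in each WT library (log2 difference -0.26 ± 0.04, adjusted p = 9.04e-06). Cabyr was at 519 and 493 CPM in Nkapl-KO RS, against 657 and 649 CPM in WT RS (log2 difference -0.37 ± 0.05, adjusted p = 2.52e-07).

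In PS, Cabyr was at 146 and 163 CPM in libraries labelled KO, against 237 and 229 CPM in WT libraries (log2 difference -0.59 ± 0.05, adjusted p = 8.15e-11). Spa17 showed the smallest falls, at 571 and 552 CPM in Nkapl-KO RS against 640.4 and 665 CPM in WT RS (log2 difference -0.22 ± 0.05, adjusted p = 0.000179). In PS it was at 341 and 353 CPM in libraries labelled KO, against 378 and 403 CPM in WT libraries (log2 difference -0.17 ± 0.05, adjusted p = 0.00231), and this call was lost without the first labelled-KO library (-0.14, adjusted p = 0.0605). Siae, its antisense neighbour, was lower in Nkapl-KO RS too (log2 difference -0.61 ± 0.11, adjusted p = 1.99e-05). Fsip1 was at 182 and 159.6 CPM in Nkapl-KO RS, against 238 and 224 CPM in WT RS (log2 difference -0.44 ± 0.06, adjusted p = 1.58e-07), and in PS at 59.7 and 60.3 CPM in libraries labelled KO, against 93.3 and 98.8 CPM in WT libraries (log2 difference -0.68 ± 0.06, adjusted p = 2.62e-10).

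Spermatid markers also moved with genotype in these libraries. Elongating spermatid markers summed to 3110 to 3130 CPM in Nkapl-KO RS and 9540 to 10100 CPM in WT RS, and to 1110 to 1120 CPM in PS libraries labelled KO and 2810 to 3010 CPM in WT PS libraries. Of these 10 markers 10 fell in RS and 9 in PS, where 31.0% and 25.7% of all genes were called lower. Round spermatid markers summed to 2330 to 2340 CPM in Nkapl-KO RS and 2940 to 3030 CPM in WT RS, and to 874 to 886 CPM in PS libraries labelled KO and 1180 to 1220 CPM in WT PS libraries, with 10 of 10 lower in each. Pachytene spermatocyte markers summed to 5410 to 5440 CPM in PS libraries labelled KO and 4580 to 4740 CPM in WT PS libraries. Of these 10 markers 6 were higher and 2 lower there (33.6% and 25.7% of all genes). In RS they summed to 3900 CPM in each Nkapl-KO library and 3990 to 4130 CPM in WT libraries. Macrophage markers summed to 32.9 to 34.7 CPM in Nkapl-KO RS and 14.3 to 14.7 CPM in WT RS. In PS they were at 5.63 to 5.68 CPM in libraries labelled KO and 3.5 to 4.14 CPM in WT libraries. Leydig cell markers summed to 20.2 to 21.5 CPM in Nkapl-KO RS and 8.1 to 8.35 CPM in WT RS. They summed to 56.8 to 61.1 CPM in PS libraries labelled KO and 39.6 to 40.5 CPM in WT PS libraries. Sertoli cell markers went the other way in PS, at 27.2 to 29.6 CPM in libraries labelled KO and 38.9 to 39.8 CPM in WT libraries. In RS they were at 6.93 to 7.29 CPM in Nkapl-KO and 5.72 to 6.42 CPM in WT libraries. The part of these markers in the falls of the sheath genes and in the rise of Akap14 was not tested.

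The difference from WT was not the same in Nkapl-KO RS as in PS libraries labelled KO for 3 of the 8 genes, where 9.02% of genes were called higher and 16.4% lower in that test. Besides Akap14, Fsip1 (difference of log2 differences, RS minus PS, 0.24 ± 0.09, adjusted p = 0.0364) and Cabyr (0.23 ± 0.07, adjusted p = 0.0207) fell less in RS than in PS. The Fsip1 call was lost in 5 of 12 alternatives and the Cabyr call in 2 of 12. For Akap3, Akap4, Ropn1, Ropn1l and Spa17 the difference lay between -0.16 and 0.18 and did not pass the test (adjusted p = 0.0546 to 0.66). For Nkapl it was -2.40 ± 0.09 (adjusted p = 4.93e-18). Each of these differences rests in part on the PS libraries labelled KO, whose Nkapl level was above WT.

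**Figure D5:**
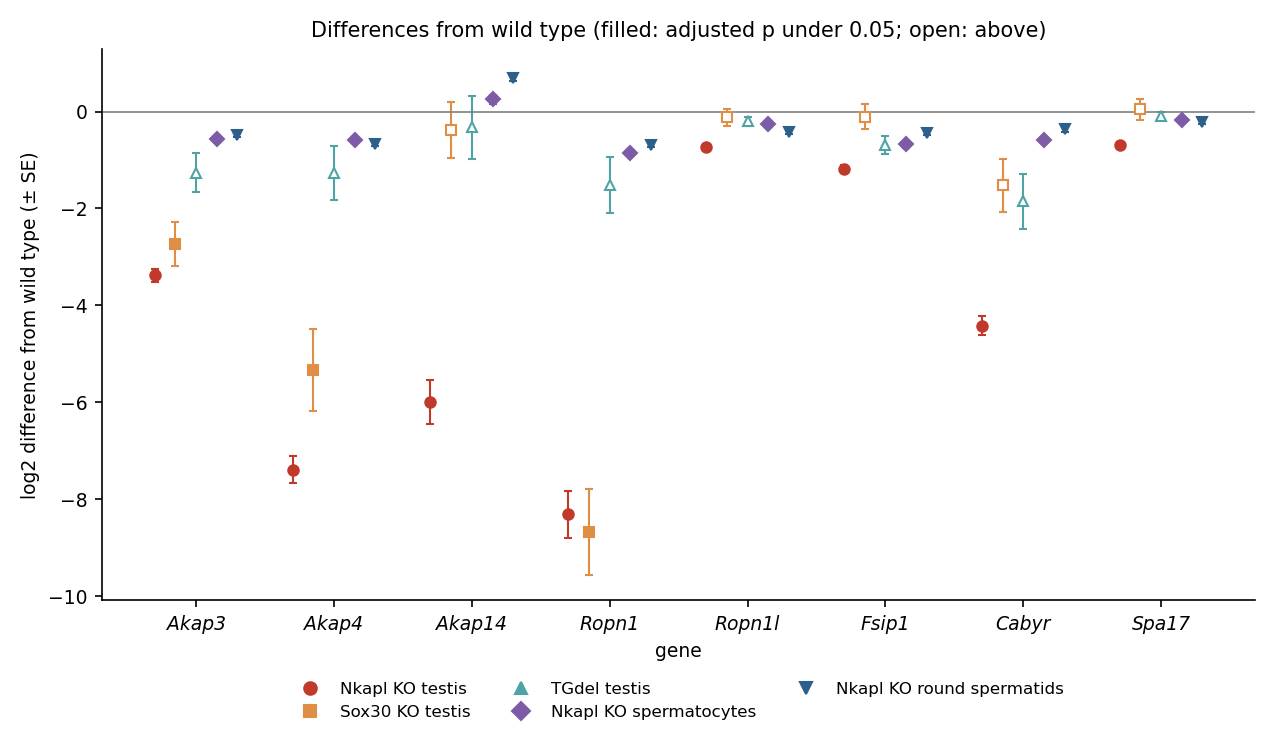
Log2 difference of each fibrous sheath gene in each comparison of a mutant with its WT libraries, with bars of ± SE from edgeR; filled points have an adjusted p under 0.05. Akap4 and Ropn1 lie at -7.39 and -8.31 in Nkapl-KO testes and at -5.33 and -8.68 in Sox30-KO testes, while all 8 genes lie within 1 log2 unit of 0 in RS and PS.

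All 8 genes were higher in RS than in PS, both in the libraries labelled KO and in WT libraries. The libraries labelled KO here include the 2 PS libraries whose Nkapl level was above WT. In libraries labelled KO 37.7% of genes were called higher and 39.3% lower, and in WT libraries 41.1% higher and 36.4% lower. The median log2 difference was 1.55 over the 8 genes in libraries labelled KO (-0.04 over all genes) and 1.35 in WT libraries (0.05 over all genes). In libraries labelled KO the rise was largest for Akap14 (log2 difference 1.76 ± 0.08, adjusted p = 1.22e-18) and smallest for Ropn1l (0.28 ± 0.04, adjusted p = 1.4e-06). In WT libraries it was largest for Akap4 (1.62 ± 0.05, adjusted p = 1.66e-22) and smallest again for Ropn1l (0.44 ± 0.04, adjusted p = 2.48e-10). Spa17, the other gene with a high level per length, rose by 0.70 in libraries labelled KO and 0.74 in WT libraries. Akap3, Ropn1, Fsip1 and Cabyr rose by 1.51 to 1.71 in libraries labelled KO and by 1.27 to 1.49 in WT libraries. Akap4 rose by 1.53 in libraries labelled KO and Akap14 by 1.31 in WT libraries. These comparisons share libraries with those of the genotypes.

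The partners of the sheath proteins were counted in lists, and each count is to be read against the share of all genes called in the same comparison. Of 6 PKA subunit genes, 5 rose and 1 fell in Nkapl-KO RS, where 29.0% of all genes were called higher and 31.0% lower. DESeq2 called 3 of the 6 higher and 1 lower (23.3% and 24.3% of all genes). The gene that fell was Prkar2a, which encodes an RII subunit bound by A-kinase anchoring proteins, at 13.6 and 13.2 CPM in Nkapl-KO RS, against 99.1 and 103 CPM in WT RS (log2 difference -2.92 ± 0.07, adjusted p = 3.12e-23). In PS libraries labelled KO 2 fell and 3 rose by edgeR (25.7% and 33.6% of all genes), while DESeq2 called 2 lower and 0 higher (21.4% and 22.9% of all genes). Prkar2a was again the most changed, at 5.32 and 5.27 CPM in PS libraries labelled KO, against 30.6 and 30.9 CPM in WT libraries (log2 difference -2.53 ± 0.10, adjusted p = 1.33e-18).

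In whole testis Prkar2a did not fall. It was at 20.9 and 20.02 CPM in Nkapl-KO testes, against 15.9, 18.8 and 16.1 CPM in WT testes, a rise by edgeR (log2 difference 0.27 ± 0.09, adjusted p = 0.0178) that was lost without WT 3 (0.24, adjusted p = 0.0869). Of the 6 PKA genes 2 fell and 3 rose in Nkapl-KO testes (26.1% and 17.8% of all genes), and 2 fell and 2 rose with DESeq2 (22.8% and 12.1% of all genes) and without WT 3. The log2 differences were -0.22 for the catalytic subunit gene Prkaca, 0.29 for Prkacb and -0.93 for the regulatory subunit gene Prkar1b, and -0.21, 0.29 and -0.97 without WT 3. In Sox30-KO and TGdel testes 0 of the 6 passed by edgeR, by DESeq2 or by an unadjusted p under 0.05. By edgeR the count was again 0 without the disagreeing libraries, adjusted or not.

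Of 12 genes of sperm tail energy supply, 10 fell and 0 rose in Nkapl-KO testes, where 26.1% of all genes were called lower, and the count was 10 with DESeq2 and without WT 3. Of these, Gapdhs and Aldoart1 had fewer than 10 counts in each KO library and were tested only because of their WT counts. In Nkapl-KO RS 9 fell and 0 rose (31.0% of all genes lower), and 8 fell with DESeq2. In PS libraries labelled KO 7 fell and 2 rose (25.7% and 33.6% of all genes), and DESeq2 called 7 lower and 0 higher. Gapdhs, the sperm glyceraldehyde-3-phosphate dehydrogenase that is bound to the sheath and is also among the elongating spermatid markers, had 1 and 0 counts in Nkapl-KO testes, against 705, 478 and 547 counts in WT testes. These counts give a ratio of WT to KO levels of 1210 (95% counting interval 217 to 47800; adjusted p = 2.98e-12, and 1.73e-09 without WT 3). In Nkapl-KO RS it fell by 0.87 log2 units, with means of 577 CPM in Nkapl-KO and 1050 CPM in WT libraries. Hk1, a hexokinase gene, fell by 1.54 log2 units in Nkapl-KO testes, with and without WT 3, and by 0.63 in Nkapl-KO RS. In Sox30-KO testes 1 gene of this list fell by edgeR (1.92% of all genes), Gapdhs, with 13 and 14 counts in Sox30-KO testes, against 1254, 1976 and 534 counts in WT testes (log2 difference -6.56 ± 0.72, adjusted p = 0.00665, and 0.000402 without WT 3). DESeq2 called 2 of the 12 lower there (3.52% of all genes), and edgeR called 2 without WT 3. Of all 16011 genes tested in TGdel testes, 1454 were lower at an unadjusted p under 0.05. Calls of lower genes there were 168 as reported and 0 to 405 over the alternatives. In TGdel testes 0 of 12 passed with edgeR, against 7 at an unadjusted p under 0.05 and 3 with DESeq2 (2.28% of all genes), and 4 passed with edgeR without the disagreeing libraries.

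Among genes of binding partners and of cAMP in the tail, 4 of 8 fell and 1 rose in Nkapl-KO testes (26.1% and 17.8% of all genes), with the same counts without WT 3, and 5 of 9 fell and 1 rose in Nkapl-KO RS (31.0% and 29.0% of all genes). DESeq2 called 3 lower and 1 higher in Nkapl-KO testes and 5 lower and 1 higher in Nkapl-KO RS. Adcy10, the soluble adenylyl cyclase of sperm, averaged 11.9 CPM in Sox30-KO testes and 180 CPM in WT testes (log2 difference -3.92 ± 0.29, adjusted p = 0.00394, and -4.06, adjusted p = 0.000404, without WT 3). It was the 1 gene of 9 that passed there with edgeR, while 3 passed without WT 3 and 3 with DESeq2. In Nkapl-KO testes Adcy10 fell by 0.94 log2 units (0.93 without WT 3), to a mean of 79.2 CPM against 152 CPM in WT testes. The Nkapl-KO effect on it differed from the Sox30-KO effect by 3.01 (adjusted p = 4.17e-05), and by 3.14 without the disagreeing libraries (adjusted p = 0.0045). Cabs1, a calcium-binding gene of the tail, fell by 1.69 log2 units in Nkapl-KO RS and by 1.39 in PS libraries labelled KO.

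Of 11 other A-kinase anchoring genes tested in Nkapl-KO testes 5 fell and 2 rose (26.1% and 17.8% of all genes), and 6 fell and 1 rose without WT 3. In Nkapl-KO RS 4 of the 11 fell and 6 rose (31.0% and 29.0% of all genes), and DESeq2 called 4 lower and 5 higher. Akap1 and Akap7 fell there by 0.90 and 1.80 log2 units, while Akap9 rose by 0.71. Of 4 genes of the annulus, the ring that bounds the sheath, 3 fell and 0 rose in Nkapl-KO testes (26.1% and 17.8% of all genes), with and without WT 3. Among those that fell was Sept4 (log2 difference -1.09 ± 0.16, adjusted p = 1.67e-05). In Nkapl-KO RS 3 fell and 1 rose (31.0% and 29.0% of all genes), Sept4 falling by 0.69 and Sept7 rising by 0.45. Grouped by the records, edgeR called 0 genes of these 5 lists in any of the 3 testis comparisons, with 2 at an unadjusted p under 0.05 in Nkapl-KO testes, 6 in Sox30-KO testes and 0 in TGdel testes.

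Over the means of the 10 groups, log2 levels of the 8 genes were correlated with each other at Pearson's r of 0.839 to 0.992 (28 pairs), a description over groups that share sets and cell types. Among 12405 other genes, those most like each member had an r of 0.992 to 0.999. For Akap4 these were Pdilt, a testis chaperone of the protein disulfide isomerase family, and Gapdhs. For Akap3 they were Sqor and Gstt4, for Ropn1 Smcp, a protein of the sperm mitochondrial capsule, and Tex13c1, and for Cabyr the spermatid kinase gene Tssk4 and Trim36. Those nearest to Akap14 were Cldn34b4 and Slc35g3, to Ropn1l Glt1d1 and Dhrs1, to Fsip1 Siah2 and Lmntd2, and to Spa17 Nudt9 and Pgs1. No gene was the nearest of more than 1 member.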

How the data were processed

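RNA was sequenced from mouse testis and from cells labelled as pachytene spermatocytes or round spermatids. Per the labels' protocols, RNA was taken with TRIzol and libraries were made with a strand-specific TruSeq total RNA kit. Per the submitters' processing notes, the tools were HISAT2 2.1.0, HTSeq and DESeq2 with the build mm10. Which annotation was counted, and whether by strand, is not given in the sources used here. The deposited values are raw read counts per gene symbol, made by the authors. Lines that name no gene, 18.76% to 24.64% of the counts in the pachytene and round spermatid files, entered neither library sizes nor tests.

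Counts were fitted with edgeR 4.0.16 (R 4.3.3, limma 3.58.1) by its quasi-likelihood test, with TMM scaling and filterByExpr by group (minimum count 10). P-values are two-sided and were adjusted over all genes tested by Benjamini-Hochberg, and a call is an adjusted p under 0.05. Each testis set was fitted on its own, and the 4 groups of pachytene spermatocytes and round spermatids together. Differences between testis sets came from a fit of all 15 testis libraries. CPM use the TMM library sizes of each fit, standard errors are the log2 difference divided by the square root of F, and values per group are mean ± SD. Intervals of count ratios are exact and, like counts at 0, cover counting error only. Where nothing says that libraries came from separate animals, p-values measure the spread between these libraries, which may be technical. The code was tested on simulated counts. Libraries that share a column were counted once, and other libraries of a group differed by more than sampling noise (chi-square per degree of freedom 1.40 to 42.0).

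The fibrous sheath genes, the lists and the markers were chosen with earlier results of these data known. The text names all members, Nkapl and Sox30, up to 3 genes per pathway list with the smallest unadjusted p, and the 2 genes most correlated with each member over group means (log2 CPM with a prior count of 2, mean of at least 1). Siae, Nkap and Rn45s were named after their values were seen, and so were the promoter letters shared by Akap3 and Akap4. Positions and exon lengths come from GENCODE on GRCm38, and promoters from RefSeq. Alternatives were DESeq2 1.42.0, RLE scaling, no filter on low counts, the replicate number as a block, leaving out each library, leaving out the libraries whose heading and record disagree, grouping by the record, and joint or single-cell-type fits.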

Additional observations from a re-analysis of the deposited data

Results flagged for a closer look

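These 8 results were picked out because an effect differed between conditions. The difference from WT was not the same in Nkapl-KO round spermatids as in pachytene libraries labelled KO, by edgeR's test of the difference itself, for Akap14 (0.44 log2 units, round spermatids minus pachytene spermatocytes), Fsip1 (0.24), Cabyr (0.23) and Nkapl (-2.40). Akap14 was higher, and Fsip1 and Cabyr were lower, in Nkapl-KO round spermatids and in pachytene libraries labelled KO, and Nkapl was lower in Nkapl-KO round spermatids and higher in the pachytene libraries labelled KO. In testis, the Nkapl-KO effect on Akap14 was lower than the Sox30-KO effect by the same kind of test (-5.60 log2 units), a call lost in 13 of 21 alternatives. Akap14 had 0 and 3 counts in Nkapl-KO testes.

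The other results stand between data sets that were not tested against each other. Akap14 was higher in Nkapl-KO round spermatids (0.70 log2 units) and in pachytene libraries labelled KO (0.25), while every Nkapl-KO testis was below every WT testis of its set. Nkapl was higher in the pachytene libraries labelled KO (0.51), while every Nkapl-KO testis was below every WT testis. These differences between testis and isolated cells were not tested. WT libraries also differed between testis and isolated cells. Their elongating spermatid markers summed to 83.4 to 131 CPM in WT testes of the Nkapl set and 2810 to 3010 CPM in WT pachytene libraries.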

How the results depend on the processing

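The fall of all 8 genes in Nkapl-KO testes was kept in every alternative except grouping by file record, where 0 passed and 0 of all genes were called lower. The cause was not tested. In round spermatids the counts of 7 lower and 1 higher were kept in all alternatives, and all 8 genes stayed higher in round spermatids than in pachytene spermatocytes. In pachytene libraries labelled KO the 1 higher gene, Akap14, was lost (0 higher) with DESeq2, without the filter on low counts and with that cell type alone, and leaving out a library gave 0 to 1.

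In Sox30-KO testes the 3 lower genes became 0 by file record, and leaving out a library gave 0 to 3. In TGdel testes the 0 lower genes became 1 with DESeq2 and 3 without the libraries whose heading and record disagree, with 0 to 2 when a library was left out. For the effect in round spermatids minus that in pachytene libraries labelled KO, 3 higher became 5 with RLE scaling, and leaving out a library gave 1 to 4 higher and 0 to 2 lower. For Nkapl-KO minus Sox30-KO, 1 lower became 4 with DESeq2, 0 without the disagreeing libraries and 0 by file record, with 0 to 5 when a library was left out. For Nkapl-KO minus TGdel, 0 lower became 3 with DESeq2, with 0 to 4 when a library was left out.

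The deviations of same-numbered libraries had correlations of -0.307 to 0.623, the highest for KO 2 and WT 2 of the Sox30 set. In a group of 2 libraries the deviations mirror each other, so these correlations cannot tell whether same-numbered libraries are paired. With the replicate number as a block, 5 genes were called lower in Sox30-KO testes in place of 3, Akap14 (-0.83) and Cabyr (-1.88) being added, and no other count of members moved by over 1.5 times. The same block took the counts of all genes from 342 lower and 90 higher to 1370 and 358 in Sox30-KO testes, and from 168 and 32 to 0 and 0 in TGdel testes.

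Signs turned in differences that had not passed the test, and not all of these were small. Spa17 in Sox30-KO testes was 0.04 and became -0.109 with the block and without the disagreeing libraries and -0.208 by file record, and -0.235 to 0.274 when a library was left out. In the same comparison leaving out a library gave -0.607 to 0.266 for Fsip1, -1.77 to 0.313 for Akap14 and -0.382 to 0.0997 for Ropn1l. Akap14 in TGdel testes ran between -1.14 and 0.165 when a library was left out, and Nkapl there was -0.0536 by file record. For round spermatids minus pachytene spermatocytes, Spa17 was 0.0177 with DESeq2 and with RLE scaling and -0.0963 to 0.037 when a library was left out, and Akap4 -0.15 to 0.00595. For Nkapl-KO minus Sox30-KO, Ropn1 ran between -2.13 and 1.07 when a library was left out, and between -2.13 and 1.46 over all alternatives. By file record Akap3 was 0.695, Akap4 1.48 and Cabyr 0.055. Leaving out a library gave -1.03 to -0.148 for Akap3, -2.78 to -0.441 for Akap4 and -3.42 to -2.03 for Cabyr. Over all genes, calls ranged over the alternatives as follows. In Nkapl-KO testes there were 0 to 4516 lower (4420 as reported) and 0 to 3237 higher (3013). In Sox30-KO testes there were 0 to 1370 lower (342) and 0 to 358 higher (90), and in TGdel testes 0 to 405 lower (168) and 0 to 211 higher (32). For round spermatids minus pachytene spermatocytes there were 1214 to 2977 lower (2599) and 933 to 1941 higher (1426). For Nkapl-KO minus Sox30-KO there were 0 to 1724 lower (627) and 0 to 251 higher (50), and for Nkapl-KO minus TGdel 0 to 672 lower (47) and 0 to 122 higher (5). For Akap14 and Ropn1, with 0 to 3 counts in each Nkapl-KO testis, depth leaves the size of the fall uncertain by over 10 times.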
